A study of Mus musculus with 12 samples.

Results

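The 42 genes described here are core regulators of the cell cycle: 9 cyclins, 5 cyclin-dependent kinases (CDKs), 7 CDK inhibitors, 8 E2F factors with their 2 DP partners, 3 pocket proteins, 3 Cdc25 phosphatases with the Wee1 kinase, 3 Myc genes and Trp53. They were listed by name, and all 42 were matched among 22367 protein-coding genes of the mouse annotation. Each was asked whether a BRG1-binding region lay at its promoter, taken as 1 kb either side of any annotated transcription start site (TSS), and within 100 kb of a TSS. BRG1 ChIPseq was measured in 12 libraries of cells differentiated from mouse embryonic stem cells of the W4/129S6 strain. The regions are those listed for wild-type cardiac precursors (CPs), a group with 2 libraries from BRG1 ChIP and 1 from input DNA. The cells were passed through embryoid bodies with VEGF, Activin and BMP4 and then grown as a monolayer with FGFs, and chromatin was digested with MNase before precipitation with a BRG1 antibody. Not analysed here were 9 further libraries, which came from wild-type cardiomyocytes (CMs), from BAF170 KO cells at both stages and from BAF60c KO CMs.

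BRG1 is the ATPase of the BAF complex, which slides and ejects nucleosomes. Cyclins activate CDKs, and cyclin D and cyclin E kinases phosphorylate the pocket proteins, which then release E2F-DP dimers so that S phase genes are transcribed. CDK inhibitors of the CIP/KIP and INK4 families hold these kinases back, and the kinase CDK1 is switched on for mitosis when Cdc25 phosphatases remove the phosphates that Wee1 adds. Heart precursors divide rapidly and most cardiomyocytes later leave the cycle.

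The list held 4791 rows and 3473 distinct regions, 793 of them on 2 or more rows, and each distinct region was counted once. What a repeated row means is not stated, so the number of rows is not read as strength of binding. It held positions on mm9 without height or P-value, so that the depth is unknown, replicate error cannot be given and regions have no rank. A gene without a region may be unbound or may lie below the authors' threshold. In a bulk list, fewer cells with BRG1 at a site and less BRG1 per cell cannot be told apart. The cell type could not be checked against markers from positions alone.

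Of the 42 genes, 14 (33.3%, 95% Wilson interval 21.0 to 48.4) had a BRG1 region at the promoter, against 2667 of 22367 (11.9%) of all protein-coding genes. They were the cyclin genes Ccnd3, Ccne1 and Ccne2, the kinase genes Cdk7 and Wee1, the inhibitor genes Cdkn1b and Cdkn2a, and E2f3, E2f5, E2f6, E2f7, E2f8, Tfdp1 and Tfdp2. E2F and DP genes thus made up 7 of the 14. Because BRG1 regions were more frequent at promoters with many CpGs, each gene was also set beside other genes whose promoter CpG count lay within 5 of its own. The mean share of those genes with a promoter region was 25.1%, which lies inside the interval of the 42 genes. A region within 100 kb was found for 29 genes (69.0%, interval 54.0 to 80.9), against 8569 (38.3%) of all genes and 53.1% of genes with the same CpG count, just below the interval. When genes were matched by the highest CpG count over their TSSs, that share was 54.5%, inside the interval. The intervals cover counting error only and treat the genes as independent, which family members and neighbours are not. No test was made. With regions of 200 bp or more the promoter count was 9, against 9.12% of all genes and 20.2% of genes with the same CpG count, and with regions on 2 or more rows it was 4, against 3.20% and 8.03%. Of the 42 genes, 19 were the nearest protein-coding gene on a side of a region within 100 kb, against 17.1% of all genes. These 19 include all 14 genes with a promoter region, and no share at the same CpG count was taken. Among genes with a region within 100 kb but none at the promoter, it was 33.3% against 21.7% of all such genes.

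Sequence from 5 of the 14 promoters is shown because these stretches lie inside a BRG1 region and upstream of a TSS, and include 3 promoter regions listed on 2 rows and those of the E2F-regulated genes Ccne2 and Cdkn2a. All are mm9, read 5′ to 3′ on the strand of the gene. They are Ccne2 (chr4:11118066-11118365, plus strand), Cdkn1b (chr6:134870119-134870418, plus strand), Cdkn2a (chr4:88940558-88940765, minus strand), E2f3 (chr13:30076089-30076388, minus strand, in the intron before the internal TSS) and E2f7 (chr10:110182286-110182494, plus strand). Capitals mark exact matches, on either strand, to the E2F words TTTGGCGC and TTTCCCGC, the E-box CACGTG bound by Myc and related factors, and the CCAAT box bound by NF-Y.
Ccne2: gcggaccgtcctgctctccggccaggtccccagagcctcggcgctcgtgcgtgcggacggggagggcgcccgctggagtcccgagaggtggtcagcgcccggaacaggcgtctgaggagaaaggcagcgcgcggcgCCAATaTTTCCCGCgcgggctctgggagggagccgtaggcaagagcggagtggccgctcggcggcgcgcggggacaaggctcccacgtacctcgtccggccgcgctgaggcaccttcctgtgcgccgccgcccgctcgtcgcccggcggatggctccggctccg
Cdkn1b: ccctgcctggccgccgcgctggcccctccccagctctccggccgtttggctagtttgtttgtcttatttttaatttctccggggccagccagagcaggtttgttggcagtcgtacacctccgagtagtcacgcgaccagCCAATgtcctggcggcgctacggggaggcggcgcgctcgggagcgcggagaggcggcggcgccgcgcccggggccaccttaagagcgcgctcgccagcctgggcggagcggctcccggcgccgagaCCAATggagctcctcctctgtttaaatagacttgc
Cdkn2a: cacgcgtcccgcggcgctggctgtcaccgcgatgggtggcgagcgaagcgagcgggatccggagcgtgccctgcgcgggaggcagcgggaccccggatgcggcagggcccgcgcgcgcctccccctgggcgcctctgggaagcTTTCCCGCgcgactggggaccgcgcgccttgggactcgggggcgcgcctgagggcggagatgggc
E2f3: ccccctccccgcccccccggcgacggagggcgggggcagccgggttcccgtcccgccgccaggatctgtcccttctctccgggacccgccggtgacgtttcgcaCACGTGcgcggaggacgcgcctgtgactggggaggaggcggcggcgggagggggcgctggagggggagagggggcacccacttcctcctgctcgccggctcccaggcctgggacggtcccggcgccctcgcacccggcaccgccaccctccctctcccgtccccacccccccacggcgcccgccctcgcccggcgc
E2f7: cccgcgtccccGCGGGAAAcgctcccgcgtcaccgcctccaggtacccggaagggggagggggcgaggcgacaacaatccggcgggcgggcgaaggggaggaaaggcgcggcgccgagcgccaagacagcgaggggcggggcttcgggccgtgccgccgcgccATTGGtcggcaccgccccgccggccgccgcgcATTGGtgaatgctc
Ccne2, Cdkn2a and E2f7 held TTTCCCGC or its reverse complement, and none of the 5 held TTTGGCGC. In Ccne2 the E2F word stood a single base after a CCAAT box. The E2f3 stretch held an E-box and no E2F word, and the Cdkn1b stretch held CCAAT boxes only. The 5 stretches had 67.0% to 79.7% GC and 33 to 45 CpGs. They were picked, in part as E2F-regulated genes, and so do not give the share of promoters with an E2F word. In the windows at the 5′ end counted below, 2 of the 14 genes with a promoter region held either E2F word. That was 14.3%, against 2.79% of other genes with a promoter region.

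The plot of regions around all 42 genes shows where each region lay.

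**Figure D1:**
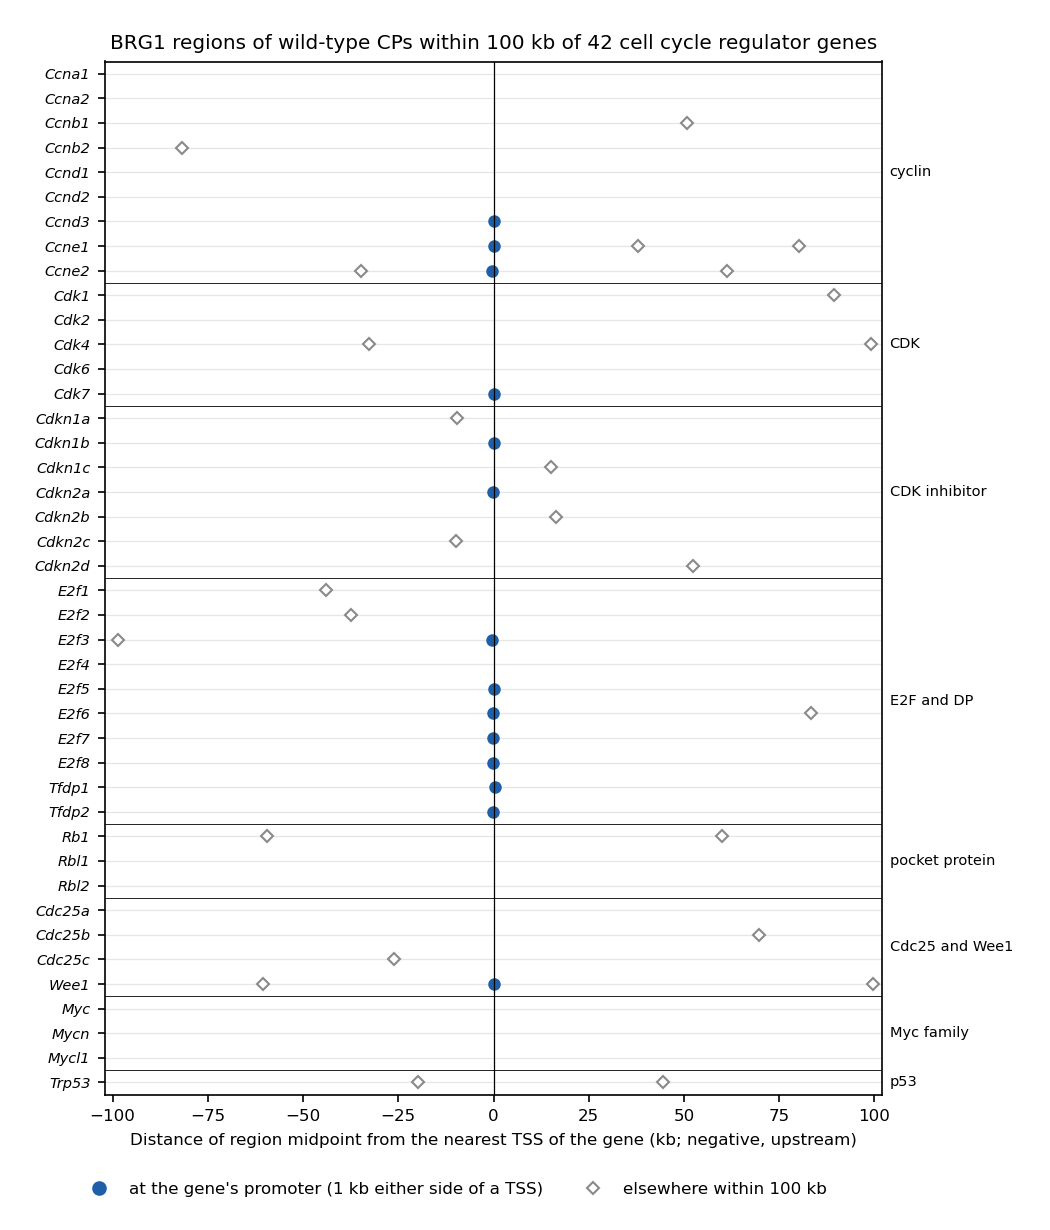
BRG1 regions of wild-type CPs within 100 kb of each of the 42 genes. Each row is a gene, grouped by role, and the x axis gives the distance in kb from the region midpoint to the nearest TSS of that gene, negative upstream. Filled circles are regions at the gene's own promoter (14 genes) and open diamonds are regions elsewhere within 100 kb. The 13 empty rows are genes without a region, among them all 3 Myc genes, whereas all 7 CDK inhibitor rows hold 1 region.

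Among the 9 cyclins, 3 had a promoter region (33.3%, against 22.8% of genes with the same CpG count). A region within 100 kb was found for 5 (55.6%, against 52.1%). Both E-type cyclins, which activate CDK2 for entry into S phase, were among the 3 with a promoter region, and each had 3 regions within 100 kb. At Ccne1 the region (chr7:38892186-38892905, 720 bp) was centred 7.5 bp downstream of the TSS and covered it. The Ccne2 region (chr4:11117726-11118365, 640 bp) ended before the TSS, with its midpoint 452.5 bp upstream. The further regions of Ccne2 lay at the promoters of Trp53inp1 and Ints8, 34.9 kb upstream and 61.4 kb downstream. Of the further regions of Ccne1, one lay between genes 38.0 kb downstream and the other at the C80913 promoter 80.1 kb downstream.

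The D-type cyclins, which couple mitogen signals to CDK4 and CDK6, differed among themselves. Ccnd3 had a narrow region of 120 bp (chr17:47730426-47730545) in the 5′ UTR, 69.5 bp downstream of the TSS of its downstream transcript. That TSS lies 88.4 kb past the 5′ end of the gene and had 109 CpGs around it, whereas the 5′ end had 45 and no region. Genes with the CpG count of the 5′ end had a promoter region in 2.76% of cases, and genes whose highest count over TSSs was near 109 in 21.1%. Ccnd1 and Ccnd2 had no region within 100 kb, their nearest being 199.7 kb and 179.5 kb away. The A-type and B-type cyclin genes Ccna1, Ccna2, Ccnb1 and Ccnb2 had no promoter region. Their nearest regions were 320 kb, 118 kb, 50.8 kb and 81.8 kb away, and that of Ccnb1 was the region at the Cdk7 promoter.

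Of the 5 CDK genes, Cdk7 had a promoter region (20.0%, against 14.4% of genes with the same CpG count). Cdk7 is the kinase that activates other CDKs and phosphorylates RNA polymerase II. The Cdk7 region was 140 bp wide (chr13:101500566-101500705) and centred in an intron 248.5 bp downstream of the TSS. Its promoter held 60 CpGs, and 3.99% of genes with that count had a promoter region. Cdk4, the partner of D-type cyclins, had regions at the promoters of Tsfm and B4galnt1, 32.7 kb upstream and 99.2 kb downstream. The mitotic kinase gene Cdk1 had 1 region 89.3 kb downstream, in an intron of Rhobtb1, with 0 CpGs and 48.9% GC. Cdk6 had none within 260 kb. Cdk2, the partner of cyclins E and A, was 1540 kb from its nearest region, in a stretch of 3.39 Mb without regions that reached the end of chromosome 10 and held the 5′ ends of 149 protein-coding genes.

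All 7 CDK inhibitor genes had a region within 100 kb, against 50.7% of genes with the same CpG count, but only Cdkn1b and Cdkn2a had a promoter region (28.6% against 25.1%). The Wilson interval of 7 of 7 begins at 64.6%, but it treats the genes as independent, and Cdkn2a and Cdkn2b were counted through the same region. At Cdkn1b, which encodes p27, the region was 1180 bp wide (chr6:134870066-134871245), was listed on 2 rows and extended from 353 bp before the TSS into the gene. Cdkn2a encodes INK4A from its downstream TSS and ARF from an upstream first exon. Its region (chr4:88940426-88940765, 340 bp) covered the upstream TSSs, with its midpoint 38.5 bp from the nearest, and lay 12.5 kb from the downstream TSS, which had no region. The same region lay 16.3 kb from the TSS of the neighbouring INK4 gene Cdkn2b, where none was listed.

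Around the other CDK inhibitors the regions lay elsewhere. Cdkn1a, the p53 target that encodes p21, had a region 1140 bp wide on 2 rows (chr17:29217886-29219025) between genes, 9.47 kb upstream. It held 34 CpGs and 53.9% GC, and Cdkn1a was the nearest gene on one side. Cdkn1c, an imprinted gene that encodes p57, had a region of 180 bp between genes 15.0 kb downstream. The nearest regions of Cdkn2c and Cdkn2d, both INK4 genes, lay at other promoters, those of Faf1 (9.77 kb) and Keap1 (52.4 kb).

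E2F and DP genes had promoter regions most often, 7 of 10 (70.0%, interval 39.7 to 89.2), against 32.1% of genes with the same CpG count, below that interval. With regions of 200 bp or more it was 5 of 10 (interval 23.7 to 76.3), without E2f6 and Tfdp1, against 26.3%, inside that interval. With regions on 2 or more rows it was 3 of 10 (10.8 to 60.3), against 9.05%. Within 100 kb, 9 of 10 had a region, against 57.7%. The group was singled out after its count was seen. The activator genes E2f1 and E2f2 had none at the promoter, nor did E2f4, the main repressor partner of the pocket proteins. Their nearest regions were 43.9 kb upstream at the Zfp341 promoter, 37.4 kb upstream between genes, and 127 kb upstream at the Cbfb promoter. With 144 CpGs, the E2f1 promoter was of a kind at which 40.4% of genes had a region.

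The regions of E2f3, E2f7 and E2f8 were all on 2 rows, as only 1 other promoter region of the 42 genes was, that of Cdkn1b. E2f3, an activator expressed from alternative first exons, had the widest, 1300 bp (chr13:30075926-30077225). It lay between the 5′ end and an internal TSS in the intron, covering the internal TSS and stopping short of the 5′ end. E2f7 and E2f8 encode the atypical E2Fs, which repress E2F targets without a DP partner. The E2f7 region (chr10:110182286-110182945, 660 bp) was centred 12.5 bp from a TSS and the E2f8 region, 1040 bp wide, 154.5 bp from one.

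The remaining E2F and DP regions were narrower. E2f5, which acts with pocket proteins, had 440 bp (chr3:14578706-14579145) centred 120.5 bp downstream of a TSS. E2f6, a repressor found in Polycomb complexes, had 180 bp (chr12:16817826-16818005) that ended just before its downstream TSS. Tfdp1 had 160 bp (chr8:13339166-13339325) in an intron, 408.5 bp past a TSS, and Tfdp2 had 420 bp (chr9:96096466-96096885) centred 18.5 bp before a TSS. Both DP genes were thus on the list, and 5 of the 8 E2f genes.

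The share by role is drawn beside that of genes with the same CpG count.

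**Figure D2:**
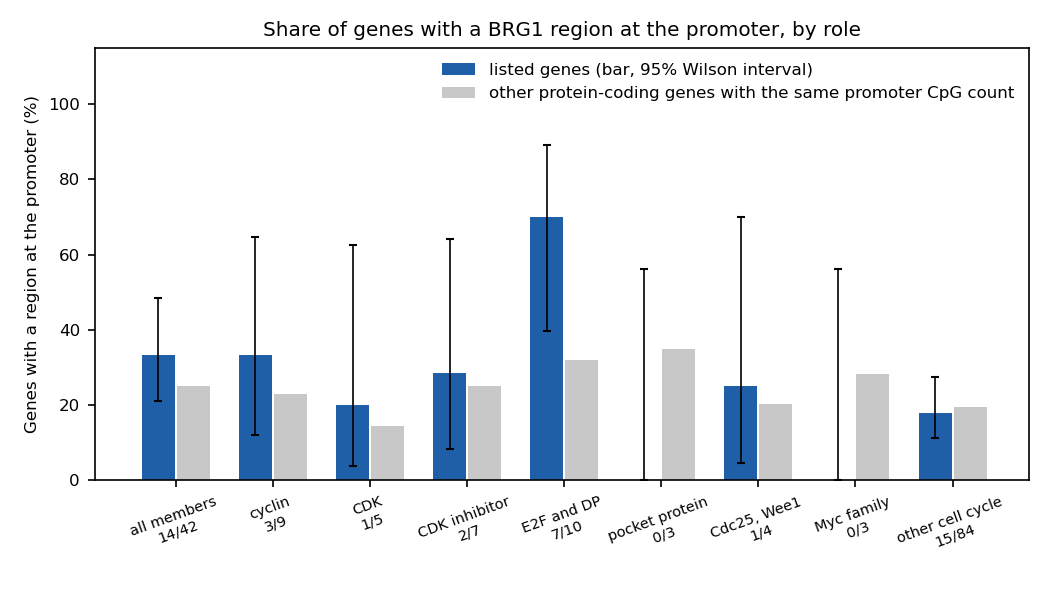
Percent of genes with a BRG1 region at the promoter, by role, with the count under each name (Trp53, a single gene without a promoter region, is left out). Dark bars are the listed genes with 95% Wilson intervals and grey bars are other protein-coding genes with the same promoter CpG count. Of the groups drawn, with all distinct regions, only E2F and DP genes have a grey bar, at 32.1%, outside the interval, which runs from 39.7 to 89.2.

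None of the 3 pocket protein genes had a promoter region, against 34.8% of genes with the same CpG count, and with 3 genes the interval reached 56.2%. Rb1, the retinoblastoma gene, had 206 CpGs, a count at which 58.2% of genes had a promoter region. Its nearest regions were at the promoters of Itm2b, 59.3 kb upstream of the 5′ end, and Rcbtb2, 60.0 kb downstream of an internal TSS. That internal TSS lies 122.6 kb past the 5′ end of Rb1, so the Rcbtb2 region was more than 100 kb from the 5′ end. Rbl1 and Rbl2 were 113 kb and 161 kb from a region. Of the Cdc25 and Wee1 group, Wee1 had a promoter region (25.0% of the group, against 20.3% of genes with the same CpG count). It was 140 bp wide (chr7:117265986-117266125) in coding sequence, 191.5 bp past the TSS. Wee1 also had regions at the promoters of Zfp143 and Swap70, 60.6 kb upstream and 99.7 kb downstream. Cdc25b and Cdc25c had regions at Pank2 and Kdm3b, 69.8 kb and 26.0 kb away, and Cdc25a was 241 kb from a region.

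The Myc genes, which drive growth and entry into the cycle, had no region within 100 kb (0 of 3, against 56.6% of genes with the same CpG count, with an interval up to 56.2%). Mycn was 256 kb and Mycl1 413 kb from a region. Myc lay furthest of all 42, 1759 kb away, in a stretch of 3.80 Mb without regions that held the 5′ ends of only 8 protein-coding genes. Trp53, which encodes p53, had no promoter region. Its nearest was 19.9 kb upstream at Efnb3, 2240 bp wide and on 4 rows, the widest region within 100 kb of the 42 genes, and another lay at Fxr2, 44.6 kb downstream.

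The promoter regions were also compared with those of other genes in size and place. Their median width was 430 bp, beside 420 bp over 2510 promoter regions of all protein-coding genes. Regions on 2 or more rows were 4 of 14 (28.6%) beside 27.1%, regions of 1 kb or wider 3 of 14 (21.4%) beside 12.5%, and regions of at most 200 bp 5 of 14 (35.7%) beside 25.7%. Midpoints lay upstream of the nearest TSS for 7 and downstream for 7, whereas 32.3% of 2720 pairs of genes and promoter regions were upstream. The side depends on which TSS is nearest. For E2f3, E2f6, E2f7 and E2f8, counted as upstream, that TSS lies past the 5′ end of the gene, and the midpoint was downstream of the 5′ end. The region covered a TSS of the gene at 8 of 14 promoters (57.1%), beside 53.5%. With 14 regions, none of these shares was tested.

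**Figure D3:**
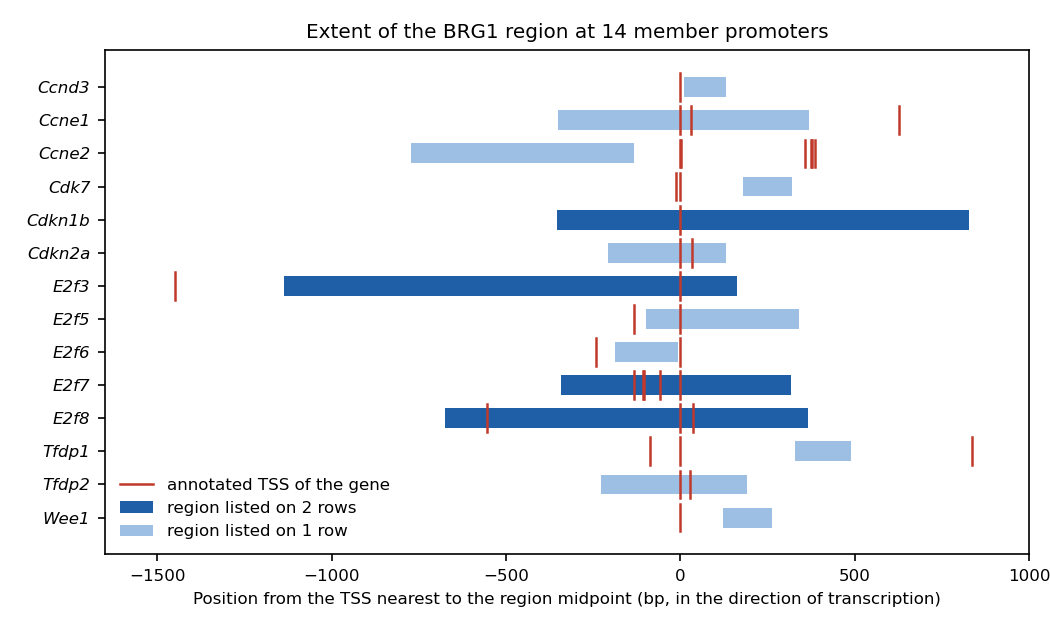
Extent of the BRG1 region at the 14 promoters. The x axis is the position in bp from the TSS nearest to the region midpoint, in the direction of transcription, bars are regions (dark, listed on 2 rows; light, on 1 row) and vertical ticks are annotated TSSs of the gene. All 4 dark bars (Cdkn1b, E2f3, E2f7 and E2f8) and 4 light bars (Ccne1, Cdkn2a, E2f5 and Tfdp2) cover a TSS, whereas the light bars of Ccnd3, Ccne2, Cdk7, E2f6, Tfdp1 and Wee1 lie beside it.

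The CpG counts of the genes, taken 1 kb either side of the 5′ end, differed between those with and without a promoter region. They ran from 45 to 215 (median 132) in the 14 genes with a region and from 17 to 206 (median 95.5) in the 28 without. Below 100 CpGs, 2 of 17 genes had a region, Ccnd3 and Cdk7, against 4.71% of other genes. The Ccnd3 region lay at its downstream TSS, which had 109 CpGs, and not at the 5′ end counted here. At 100 or more CpGs it was 12 of 25, against 34.2%. Among other genes the share at the promoter rose from 0.615% below 20 CpGs to 62.3% at 200 to 219 CpGs.

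**Figure D4:**
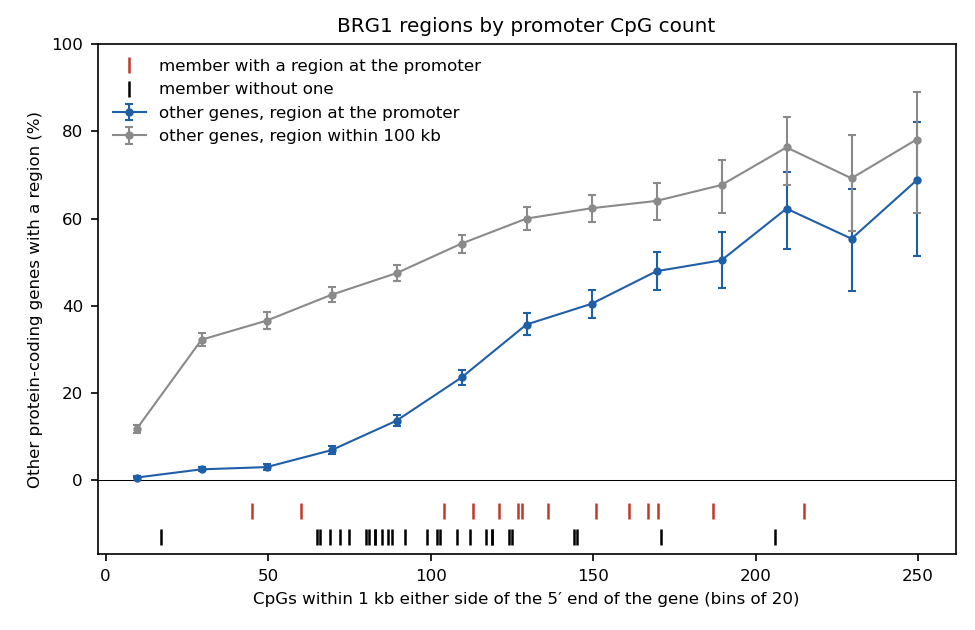
Percent of other protein-coding genes with a BRG1 region (y axis) by the number of CpGs within 1 kb either side of the 5′ end (x axis, bins of 20, the last one wider), with 95% Wilson intervals. Blue is a region at the promoter, grey one within 100 kb. Marks under the axis are the 42 genes, the upper row the 14 with a promoter region and the lower row the 28 without. All but 2 of the upper marks stand above 100 CpGs. Of these 2, Ccnd3 is placed by its 5′ end, where it had no region.

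Distances had a wide gap between genes with and without a promoter region, part of which is set by the limit of 1 kb. Over all protein-coding genes the share with a region rose little past that limit, from 11.9% within 1 kb to 12.3% within 2 kb. The furthest midpoints at promoters were those of Ccne2 and E2f3, 452.5 bp and 487.5 bp from a TSS, and the next genes out were Cdkn1a at 9.47 kb and Cdkn2c at 9.77 kb. Around 100 kb, Cdk1 lay inside at 89.3 kb and Rbl1, Ccna2 and E2f4 outside at 113 kb, 118 kb and 127 kb. The median distance to the nearest midpoint was 35.1 kb over the 42 genes, 166 kb over all protein-coding genes and 87.0 kb as the median over the sets with the same CpG count. A region was nearer than the median of its own set for 28 of the 42 genes.

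Of the 29 genes with a region within 100 kb, 21 had 1, 5 had 2 and 3 had 3, which made 40 pairs of genes and 38 distinct regions. Of the 24 regions that lay at no promoter of the 42, 18 (75.0%) were at the promoter of another protein-coding gene and 6 were away from such promoters, near the 72.3% of the whole list at protein-coding promoters. For 11 of the 15 genes without a promoter region, every region within 100 kb was at another gene's promoter (73.3%), near the 71.1% of all such protein-coding genes. The exceptions were Cdk1, Cdkn1a, Cdkn1c and E2f2. Of the 15, 5, namely Ccnb2, Cdkn1a, Cdkn1c, Cdkn2b and Rb1, were the nearest protein-coding gene on one side of a region (33.3%, against 21.7% of all such genes).

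Words bound by cell cycle factors were counted on both strands from 250 bp before to 50 bp after the 5′ end of each gene. Either E2F word was present in 8 of 42 (19.0%), against 1.98% of all protein-coding genes and 3.06% of genes with the same CpG count. Of the 8, only Cdkn2a and E2f7 had a promoter region. That made 2 of 14 with a region (14.3%) and 6 of 28 without (21.4%), whereas among other genes the share was 2.79% with a region and 1.83% without. The word printed above for Ccne2 lies outside this window. E2f8 likewise held both E2F words inside its promoter region but not in this window, so the window does not cover every word in the regions.

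The E-box CACGTG was in 7 of 42 windows (16.7%, all genes 7.78%, same CpG count 10.6%). CCAAT was in 18 (42.9%, against 37.9% and 35.9%) and the GC box GGGCGG, bound by Sp1-like factors, in 33 (78.6%, against 43.4% and 70.0%). The CHR word TTTGAA, found in promoters of mitotic genes, was in 7 (16.7%, against 16.3% and 10.1%), among them Ccnb2, Cdc25c and Cdk1. The GATA word AGATAA was in 0 windows, against 10.3% of all genes and 4.67% of those with the same CpG count. A match is a description of letters and not a bound site. None of these words is contained in another.

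Beyond the 42 genes, 84 further cell cycle genes were counted. A promoter region was found for 15 (17.9%, interval 11.1 to 27.4), against 19.4% of genes with the same CpG count, and a region within 100 kb for 42 (50.0%, against 49.5%). The licensing group, whose products load the replicative helicase, had 1 of 15 at the promoter (Orc1, 6.67% against 12.9% of genes with the same CpG count), and the group of mitotic kinases and spindle checkpoint genes had 0 of 10 (against 11.7%), with 1 of 10 within 100 kb against 45.7%. Ubiquitin ligase genes had 4 of 11 (Skp1a, Cul1, Fbxw7 and Cdc27, 36.4% against 18.5%, interval 15.2 to 64.6), and the products of Fbxw7 and Cul1 act together in degrading cyclin E. Further promoter regions were at Ccng1, Ccnt2, Cdk8 and Cdk13 among 20 other cyclin and CDK genes (20.0% against 20.3%), and at Lin9 and Mybl2, partners in activating mitotic genes, among 8 of their complexes (25.0% against 29.8%). Mnt, a Myc antagonist, was the only one of 8 Max network genes (12.5% against 26.4%). Mdm2, the ligase for p53, Gadd45a and Pkmyt1, a relative of Wee1, were found among 12 genes of the p53 pathway and DNA damage checkpoint (25.0% against 21.5%). No test was made of the difference from the 42.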

How the data were processed

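BRG1 ChIPseq of wild-type CPs (2 ChIP libraries and 1 input library) was taken as the deposited list of regions. To make it, the authors used fastq-mcf for trimming, Bowtie for alignment to mm9 and a minimum mapping quality, and kept bins with significant enrichment relative to input. The deposited values are positions only, a chromosome, start and end in bp. How the ChIP libraries were combined into the list is not given in the sources used here, nor are tool versions. The number of rows, 4791, is the number that the study gives for CP sites. The number of distinct regions, 3473, is the one that the study gives for CM sites, in its text and in a supplementary legend. Whether the list mixes CP and CM sites is unknown. The 2 ChIP libraries share their label; whether they came from separate cultures is not given.

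Starts were read as counted from 0 and are printed counted from 1. Genes and TSSs were from GENCODE release M1 and sequence from NCBIM37 (mm9), on chromosomes 1 to 19, X and Y, using Python 3.11.15, numpy 2.4.6, scipy 1.17.1, pysam 0.24.0, matplotlib 3.10.9 and samtools 1.23.1. A region counted at a promoter if any base lay within 1 kb of any annotated TSS. Distances run from the region midpoint to the nearest TSS, whereas the limit of 100 kb was met by any base. CpGs were counted in 2001 bp around the 5′ end. The comparison genes were the other 22308 protein-coding genes, without 17 on chromosome Y, with a count within 5. Genes and distances were tested on simulated lists, where counts equalled an exhaustive search in 20 of 20 simulations.

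The 42 genes, the 84 further cell cycle genes and the words were chosen with earlier results of these data known. All 42 are named, with the position of each promoter region and otherwise the nearest region, and the further genes are given as counts with those that had a promoter region named. Some sequences and 1 position are not reported here. Of the names of further genes, 6 older ones were not matched.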

Additional observations from a re-analysis of the deposited data

How the results depend on the processing

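Among 33 alternatives over 6 results, 25 left the value little changed. That meant counts within 1.5 times, shares within 10% and the median distance within its 95% interval by order statistics (9.47 to 81.8 kb). Each value was compared with its own main value and not with the share of other genes. A choice of fewer regions, by width or by number of rows, moved most. With regions of 200 bp or more, 9 of the 42 genes had a promoter region (9.12% of all genes; 20.2% of genes with the same CpG count), since Ccnd3, Cdk7, E2f6, Tfdp1 and Wee1 dropped out. With regions on 2 or more rows, 4 had one (3.20% of all genes; 8.03% with the same CpG count), 8 had one within 100 kb (9.92% of all genes), 3 of the 10 E2F and DP genes had a promoter region (5 with regions of 200 bp or more) and the median distance was 783 kb (974 kb over all genes). The shares of genes with the same CpG count and the E2F and DP counts in these settings were added after the data were seen. Counting only genes with the nearest protein-coding TSS on a side of the region left 19 within 100 kb (17.1% of all genes), among them the 14 with a promoter region. The median distance with regions of 200 bp or more was 75.8 kb, beside 260 kb over all genes. The promoter count was 14 with 500 bp and with 2 kb either side, 13 with the 5′ end only, without Ccnd3, and 11 with 1 kb upstream only, without Ccnd3, Cdk7 and Wee1. The share of genes with the same CpG count ran from 24.3% to 26.0% at the promoter under other CpG settings. Within 100 kb it ran from 52.4% to 54.5%, the highest value lying inside the interval of the 42 genes.

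The list gives no depth or score, and neither leaving out a library nor a higher threshold was run. No paired analysis was possible because regions carry no measurement from single libraries.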
